A study of Drosophila melanogaster with 9 samples.

Results

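Gene expression in the larval ring gland after starvation begun past the nutrient restriction checkpoint was compared with that in fed larvae, across all genes, in RNA-seq libraries of Drosophila melanogaster. The comparison holds 6 of the 9 libraries of the series. These are 3 post-NRC starvation libraries and 3 feeding libraries, chosen by their labels and not by any measured value. All larvae were of the w1118 strain, and each library was made from about 1200 ring glands that had been dissected in small batches and pooled. The 3 further libraries came from larvae starved before the checkpoint (pre-NRC starvation). They entered the gene filter, the scaling and the estimate of the spread, and showed where the starved groups differed from each other. The feeding columns of the deposited table are headed with a time of 108 h, whose starting point is not stated. For the starved libraries, the labels and column names state no time, larval age or length of starvation. The age at dissection and the nutritional state therefore cannot be told apart in any difference below.

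The ring gland is the compound endocrine organ of the fly larva. Its prothoracic gland makes the steroid ecdysone, its corpora allata make juvenile hormone, and its corpora cardiaca release adipokinetic hormone, which mobilises stored sugar and lipid. The nutrient restriction checkpoint is the point of the last larval instar at which a larva has fed enough for starvation no longer to stop its progress to metamorphosis. Larvae starved before it arrest, whereas larvae starved after it pupariate as small animals.

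The 6 libraries held 29123939 to 29945920 counts after post-NRC starvation and 31377442 to 34455483 counts after feeding. The second principal component, with 16.5% of the variance, separated replicate 3 of every group from the other replicates. Feeding replicates 1 and 2 were much closer to each other than any other pair. They differed by 6.73 times what counting noise gives, whereas the other pairs within groups differed by 38.0 to 172 times, and they were kept as separate samples. Genes of the mitochondrial genome took 5.21% to 6.26% of the counts after post-NRC starvation and 3.86% to 4.51% after feeding. The defining markers of the gland were present in every library. The summed level of 7 prothoracic gland markers was 20520, 17940 and 23050 counts scaled to library size (CPM) after post-NRC starvation, against 26210, 26390 and 36610 CPM after feeding, and phm contributed 42.7% of it. Markers of other tissues were also counted in all groups, and sums of some of them are given beside the results below. In pooled tissue, a smaller share of cells of one type and less RNA per cell cannot be told apart.

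**Figure D1:**
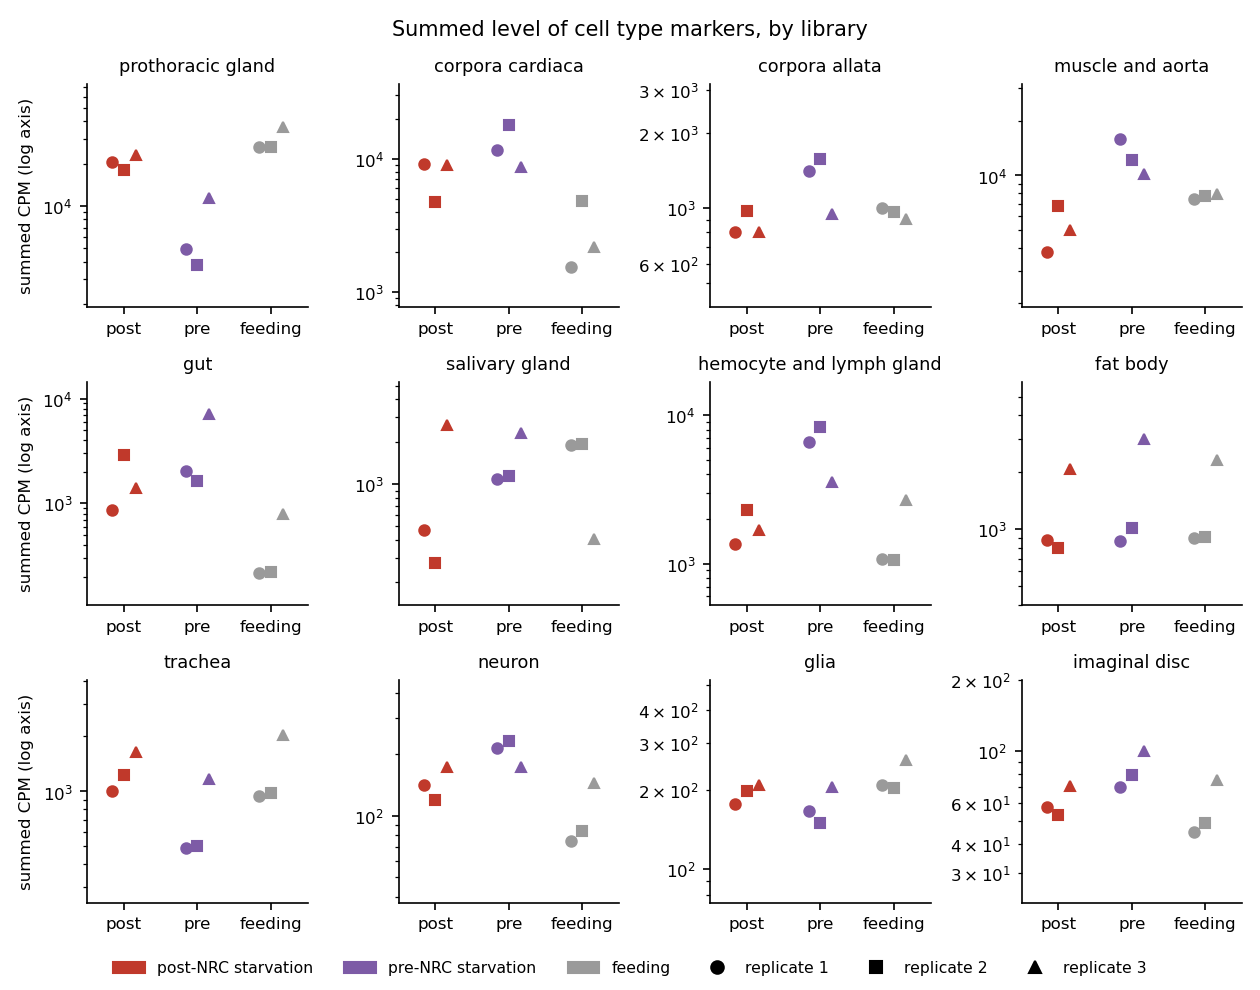
Summed CPM of the marker genes of 12 tissues and cell types in each library (log axis), with post-NRC starvation on the left, then pre-NRC starvation, then feeding, and 1 point per library. Gut marker sums were 862 to 2874 CPM after post-NRC starvation and 215 to 802 CPM after feeding, while the prothoracic gland sums of the post-NRC libraries were all below those of the feeding libraries.

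After starvation past the checkpoint, secreted lipases, antimicrobial peptides, some digestive enzymes and many genes with only a number in the deposited table rose, and single genes of glycolysis, glycogen, lipid and cuticle formation fell. Of 10883 genes tested, 88 differed between post-NRC starvation and feeding (0.809%, edgeR quasi-likelihood test, Benjamini-Hochberg adjusted p under 0.05), of which 69 rose (0.634% of the genes tested) and 19 fell (0.175%). The median change of the rises was 3.57 and that of the falls was -1.49 on the log2 scale, against 0.02 over all genes tested. The rises were mostly of genes with few counts in fed larvae. Their median level was 15.7 CPM after post-NRC starvation and 1.49 CPM after feeding, against a median of 22.3 CPM over all tested genes in feeding. The falls were of more abundant transcripts, with a median level of 63.3 CPM after post-NRC starvation and 162 CPM after feeding. The groups did not overlap for any of the 88 genes, nor for 2536 of the 10883 genes tested (23.3%). At an unadjusted p under 0.05, 1052 genes were higher and 557 lower after post-NRC starvation.

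How many genes passed rested on single libraries. When each of the 9 libraries was left out in turn, 14 genes kept their call in every fit (CG13135, CG14852, CG14850, CG8087, CG31313, CG4593, CG7300, CG7191, CG34290, CG6271, Lip3, Drs, qua and CG6084). The other 74 all lost it without feeding replicate 2, and 69 of them also without feeding replicate 1. Many calls also rested on the pre-NRC libraries. With the 6 compared libraries alone, 42 genes were called, among them 33 of the 88, and the other 55 were lost. Of the 14 genes above, only CG34290 was lost in that fit (adjusted p = 0.0591). With feeding replicates 1 and 2 summed to 1 sample, 18 genes were called, all among the 88. With the replicate number as a block, 193 genes were called (1.77%), among them 80 of the 88. DESeq2 called 733 genes, which included all 88, and limma-voom called 41, of which 40 were among the 88. A call that was lost in some fits is marked below by the number of the 9 fits in which it held. The strand setting of the counting is not known, so reads of genes with overlapping exons cannot be told apart. Besides the overlaps named below, exons of another annotated gene overlap those of CG4593, CG7300, CG34290, qua, Swim, Sclp, Obp99c, Ald, Jheh1, Lcp9 and CG1636 among the called genes. Among the other genes named, the same holds for PGRP-SD, Ptth, Pgk, Pglym78, Eno, Jheh2, sro, sad, dib, Marf, Drp1, Pink1 and Mtpalpha.

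**Figure D2:**
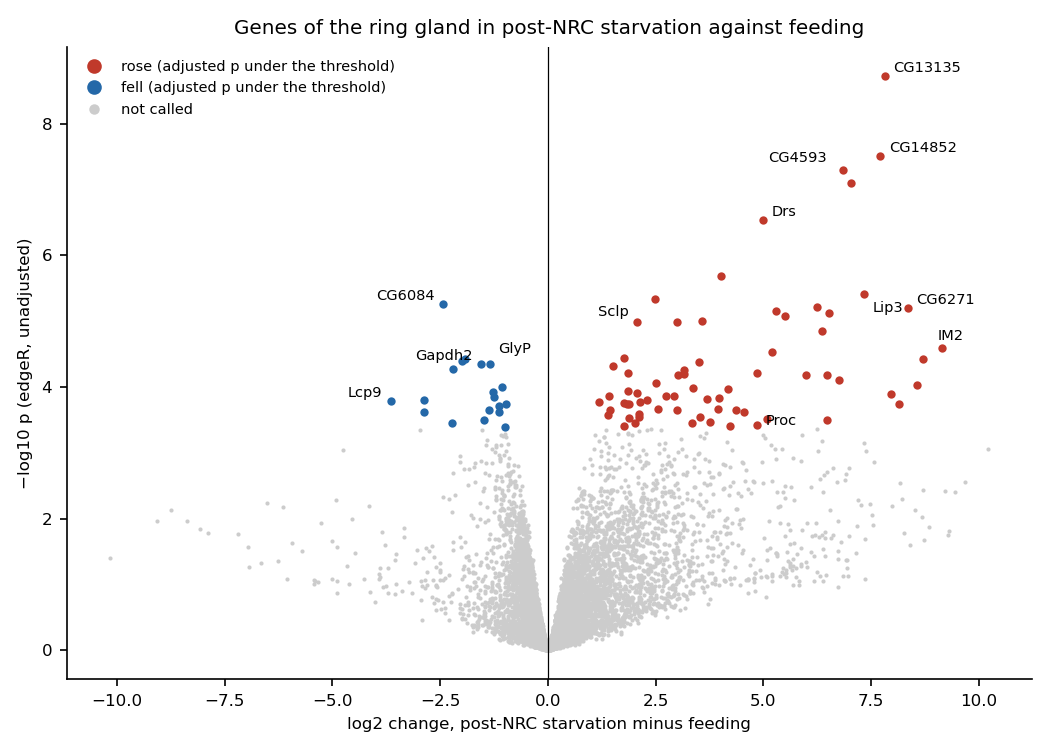
The log2 change of each of 10883 genes in post-NRC starvation minus feeding (x axis) against -log10 of its unadjusted p (y axis), with the 69 genes that rose in red, the 19 that fell in blue and the others in grey. The rises reach further from 0 than the falls, with a median of 3.57 against -1.49.

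Secreted lipases were among the furthest rises. Lipases release fatty acids from stored or ingested triglyceride, and CG6271, CG6277 and CG6283 are predicted members of the pancreatic lipase family that lie side by side on chromosome 3R, within bases 27020238 to 27026109 of the BDGP6 annotation. CG6271 had 89.6, 168 and 178 CPM after post-NRC starvation, against 0.156, 0.847 and 0.306 CPM after feeding. All of the starved libraries were far above all of the fed ones, a change of 8.36 (log2, SE 0.89, adjusted p = 0.00622, edgeR). CG6283 had 3.81, 11.0 and 14.2 CPM after post-NRC starvation, against 0.0625, 0.0907 and 0.153 CPM after feeding (log2 change 6.51, SE 0.70, adjusted p = 0.00632). Its call was lost only without feeding replicate 2, with an adjusted p of 0.0526. CG6277 had 7.79, 13.7 and 21.8 CPM after post-NRC starvation and was counted in 1 of the 3 feeding libraries, at 0.0907 CPM. The ratio of the summed levels was 482 (95% counting interval 165 to 2340, adjusted p = 0.0179), and the call was lost without feeding replicate 1 or 2, with a highest adjusted p of 0.0918.

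Lip3, an acid lipase that is known as a starvation-responsive gene of the fly, had 29.5, 23.1 and 53.8 CPM after post-NRC starvation, against 0.219, 0.121 and 0.306 CPM after feeding. Every starved library was above every fed one (log2 change 7.34, SE 0.73, adjusted p = 0.00588). Its exons overlap those of CheA87a, so reads of the pair may be mixed. Of the 16 tested lipase and lipolysis genes, these 4 rose and none fell, and the median change of the list was 1.94. DESeq2 called 7 of them higher, the block fit 5 and limma-voom none, and 10 were higher at an unadjusted p under 0.05. In all, 12 were higher in every post-NRC library than in every feeding library (75.0%, against 13% of all genes tested) and 1 was lower. Lip4 missed the threshold with 4.58, 5.13 and 5.31 CPM after post-NRC starvation and 0.813, 1.42 and 1.87 CPM after feeding (adjusted p = 0.0548, and 0.0394 with the replicate block). bmm, the fly homologue of adipose triglyceride lipase, had 39.6, 58.2 and 51.8 CPM after post-NRC starvation and 25.4, 28.5 and 29.5 CPM after feeding (adjusted p = 0.267).

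The summed level of gut markers was higher in every post-NRC library than in every feeding library. All 13 gut markers were counted, and their sum was 862.2, 2874 and 1419 CPM after post-NRC starvation, against 214.7, 223.1 and 801.5 CPM after feeding, with 42.9% of it from Jon65Aiii. None of the 13 was called and DESeq2 called 4 higher. In all, 7 were higher in every post-NRC library than in every feeding library (53.8%, against 13% of all genes tested). The part of the gut markers in the rise of the lipases was not tested.

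**Figure D3:**
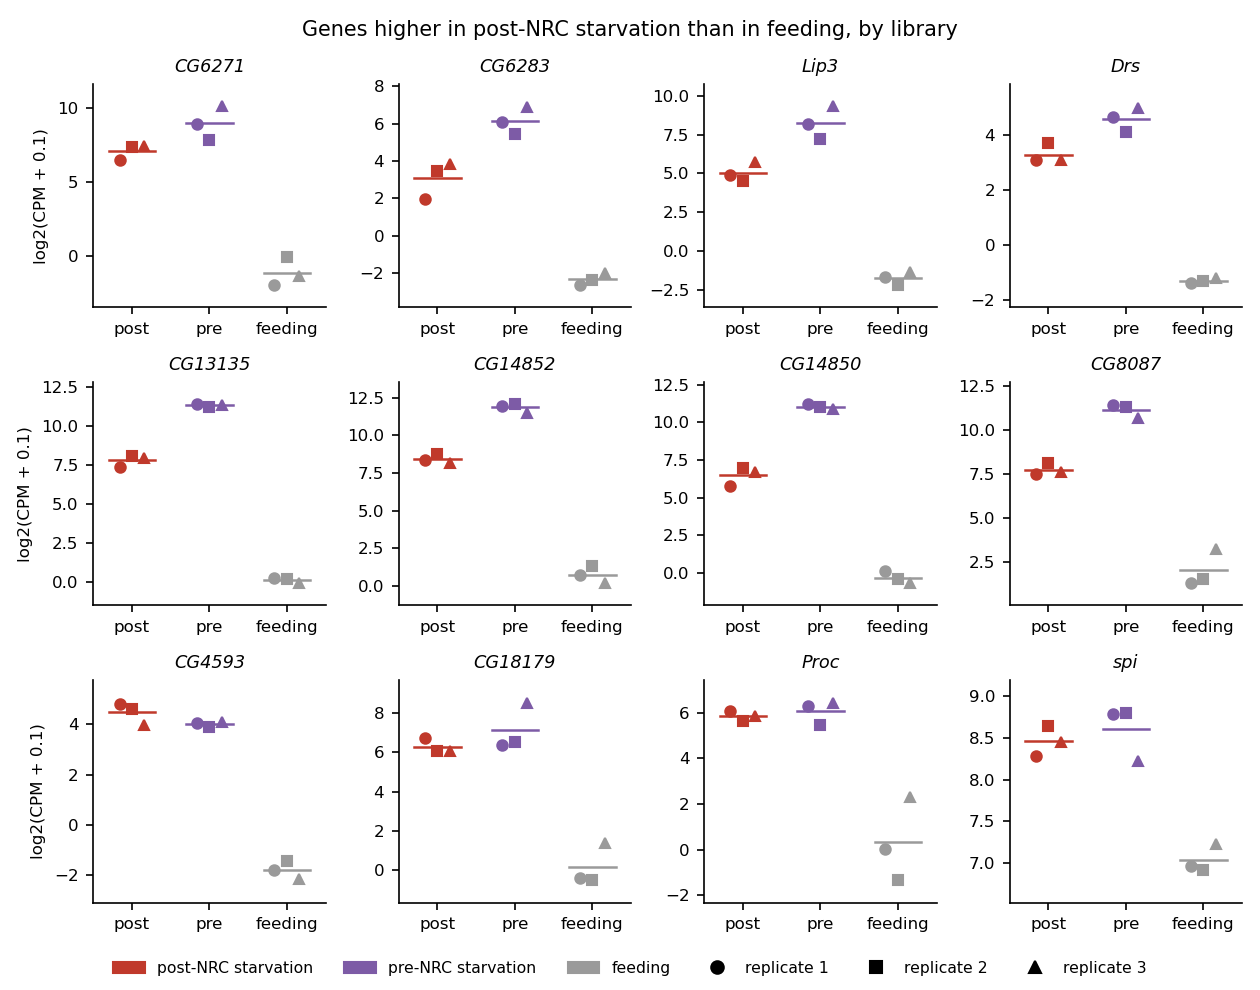
Level of 12 genes that rose after post-NRC starvation, in each library, as log2(CPM + 0.1), with post-NRC starvation on the left, then pre-NRC starvation, then feeding. Points are libraries, their shape is the replicate number and bars are the mean of the log values. No post-NRC library overlaps a feeding library in any panel. For CG6271, CG6283, Lip3, Drs, CG13135, CG14852, CG14850 and CG8087 the post-NRC libraries lie between the other groups.

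The rises with the smallest p were of genes that the deposited table gives only by number. CG13135 had 165, 277 and 245 CPM after post-NRC starvation, against 1.09, 1.06 and 0.857 CPM after feeding (log2 change 7.83, SE 0.32, adjusted p = 2.02e-05). The libraries of each group were close together and the groups were far apart. CG4593 had 28.3, 24.5 and 15.8 CPM after post-NRC starvation, against 0.188, 0.272 and 0.122 CPM after feeding (log2 change 6.85, SE 0.41, adjusted p = 0.000185). After pre-NRC starvation CG4593 had 16.7, 14.9 and 17.2 CPM, and the starved groups were not told apart (log2 difference 0.49, adjusted p = 0.331). Of the 69 rises, 42 carry only a CG number in the deposited table (60.9%), against 46.0% of the genes tested, although 3 of the 42 have names in the reference used here (CG14850 is Jig, CG15067 is BomBc2 and CG9780 is Nepl11).

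Many of these genes lie next to each other. Of the 83 called genes with a position, 17 had another called gene within 10000 bases (20.5%), against 3.17% of all genes tested. On chromosome 3R, CG14850, CG8087, CG14852 and CG31313 lie within bases 14560935 to 14567429, and all 4 kept their calls in every fit. CG14852 had 327, 434 and 290 CPM after post-NRC starvation, against 1.53, 2.42 and 1.04 CPM after feeding (log2 change 7.71, SE 0.44, adjusted p = 0.000168). CG14850 had 54.1, 128 and 102 CPM after post-NRC starvation, against 0.969, 0.665 and 0.52 CPM after feeding (log2 change 7.03, SE 0.44, adjusted p = 0.000218). CG8087 had 182, 278 and 194 CPM after post-NRC starvation, against 2.38, 2.78 and 9.25 CPM after feeding (log2 change 5.50, SE 0.60, adjusted p = 0.00649). In all 3 genes the fed libraries were low and the starved ones high, with no overlap. CG31313, whose product is predicted to hold a cystatin domain, changed less, with 24.9, 27.7 and 18.4 CPM after post-NRC starvation and 4.44, 3.14 and 5.08 CPM after feeding (log2 change 2.49, SE 0.25, adjusted p = 0.00622). Its exons overlap those of CG14852, so its reads may partly belong to that gene.

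Other neighbours rose together at further loci. On chromosome 3L, CG13461, CG18649 and CG13460 lie within bases 15051931 to 15061705. CG13461 had 11.2, 11.2 and 16.4 CPM after post-NRC starvation, against 0, 0.0907 and 0.367 CPM after feeding (log2 change 6.36, SE 0.74, adjusted p = 0.00857). CG18649 had 98.2, 90.2 and 66.6 CPM after post-NRC starvation, against 4.66, 4.11 and 13.7 CPM after feeding (log2 change 3.51, SE 0.47, adjusted p = 0.0181). CG13460 had 267, 327 and 201 CPM after post-NRC starvation, against 20.6, 18.5 and 50 CPM after feeding (log2 change 3.16, SE 0.45, adjusted p = 0.02). In each of them feeding replicate 3 was the highest fed library and remained below all starved ones. CG13461 lost its call only without feeding replicate 2 (adjusted p = 0.0806). The other 2 lost it without feeding replicate 1 or 2 or post-NRC replicate 1 or 2, with highest adjusted p values of 0.0873 and 0.111. On chromosome 2L, CG7294 and CG7300 lie within bases 10688734 to 10698043. CG7300 had 11.1, 19.2 and 7.82 CPM after post-NRC starvation, against 0.125, 0.0907 and 0.276 CPM after feeding (log2 change 6.24, SE 0.66, adjusted p = 0.00622), and kept its call in every fit. CG7294 rose by a log2 change of 2.11 (adjusted p = 0.0408), a call that held in 3 of the 9 fits and was lost with the replicate block (adjusted p = 0.0514).

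Further genes of this kind rose at single loci. CG7191 had 9.12, 6.76 and 11.9 CPM after post-NRC starvation, against 0.688, 0.393 and 0.612 CPM after feeding (log2 change 4.03, adjusted p = 0.00367). CG34290, with a predicted trypsin domain, had 4.33, 3.7 and 4.52 CPM after post-NRC starvation, against 0.406, 0.151 and 0.49 CPM after feeding (log2 change 3.57, adjusted p = 0.00663). Both kept their calls in every fit. CG42822 had 16.1, 15.4 and 21.7 CPM after post-NRC starvation, against 0.125, 0.363 and 0.857 CPM after feeding (log2 change 5.29, adjusted p = 0.00622, and 0.0526 without feeding replicate 2). CG17362 had 71.0, 78.1 and 69.2 CPM after post-NRC starvation, against 0.656, 0.968 and 4.26 CPM after feeding (log2 change 5.21, adjusted p = 0.0157, held in 7 of 9 fits). CG43316 had 3.0, 9.11 and 2.38 CPM after post-NRC starvation and was counted in 1 feeding library, at 0.121 CPM (adjusted p = 0.0229, held in 5 of 9 fits). CG14265, CG10918 and CG32198 rose by log2 changes of 3.68, 3.53 and 2.54, with calls that held in 4, 2 and 2 of the 9 fits, and that of CG14265 was lost with the replicate block (adjusted p = 0.0524). Without feeding replicate 2 none of the last 6 genes passed. Another 3 rises were genes of the authors' own assembly that resembled retroelements. The furthest of them, Drosophila_melanogaster_newGene_1930, had 178, 119 and 9.16 CPM after post-NRC starvation, against 1.44, 0.968 and 1.01 CPM after feeding. Post-NRC replicate 3 was far below the other starved libraries and above the fed ones (log2 change 6.49, SE 1.14, adjusted p = 0.043, held in 2 of 9 fits, those without post-NRC replicate 3 or pre-NRC replicate 3, with the highest adjusted p at 0.217).

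Most antimicrobial peptide genes were higher after post-NRC starvation. These peptides are released by fat body, hemocytes and epithelia under the Toll and Imd pathways. Drs, which encodes the antifungal peptide drosomycin, had 8.49, 12.8 and 8.31 CPM after post-NRC starvation, against 0.281, 0.302 and 0.337 CPM after feeding. The starved libraries were each well above the fed ones, a change of 4.99 (log2, SE 0.36, adjusted p = 0.000624) that kept its call in every fit. Dpt, which encodes the antibacterial peptide diptericin, had 2.8, 1.42 and 3.21 CPM after post-NRC starvation, against 0.281, 0.181 and 0.245 CPM after feeding (log2 change 3.37, SE 0.51, adjusted p = 0.027). Its call held in 3 of the 9 fits, with a highest adjusted p of 0.174, and was lost without feeding replicate 1 or 2.

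Bomanins are short secreted peptides of the Toll response, and 3 of their genes had no count in any fed library. IM2 (BomS2) had 2.06, 3.28 and 1.25 CPM after post-NRC starvation and no count in any feeding library. Its summed level was at least 69.9-fold higher against a floor of 3 counts over the group (adjusted p = 0.0147). Such folds, here and below, compare group sums and hold no spread between libraries, so a single library can lie below them. IM1 (BomS1) had 0.664, 2.74 and 1.04 CPM after post-NRC starvation and none after feeding, at least 47.3-fold higher (adjusted p = 0.0263). CG15067 (BomBc2), which the gene list did not hold, had 1.12, 1.1 and 1.1 CPM after post-NRC starvation and none after feeding, at least 36.1-fold higher (adjusted p = 0.032), although its exons overlap those of another bomanin gene. These levels are low, and the calls of IM2, IM1 and CG15067 held in 7, 5 and 2 of the 9 fits. All 3 lost them without feeding replicate 2 (highest adjusted p values 0.0556, 0.0984 and 0.124), and that of CG15067 was also lost with the replicate block (adjusted p = 0.0562). CG10799, which is also outside the list, was the fourth rise with no count in feeding, with 1.15, 0.748 and 0.977 CPM after post-NRC starvation (at least 31.3-fold higher, adjusted p = 0.0301, and 0.0514 with the block, held in 3 of 9 fits).

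Of the 28 listed and tested antimicrobial peptide and bomanin genes, Drs, Dpt, IM1 and IM2 rose and none fell. The list's median change was 4.54, and 22 members were higher in every post-NRC library than in every feeding library (78.6%, against 13% of all genes tested). DESeq2 called 20 of them higher and limma-voom 1. IM3 (BomS3) missed the threshold, with 4.4, 10.4 and 2.63 CPM after post-NRC starvation and 0.219 CPM in 1 feeding library (adjusted p = 0.0515, and 0.0468 with the block). Among the 16 peptidoglycan and glucan recognition genes none passed, although 8 were higher at an unadjusted p under 0.05, DESeq2 called 7 and the block fit called 3. PGRP-LB, an amidase that dampens the Imd pathway, had 56.0, 176 and 24.2 CPM after post-NRC starvation and 10.3, 12.1 and 5.36 CPM after feeding (adjusted p = 0.075, and 0.0372 with the block). PGRP-SC2, a further amidase of the family, had 8.18, 13.1 and 23.2 CPM after post-NRC starvation and 0.75, 0.937 and 2.54 CPM after feeding (adjusted p = 0.0844, and 0.0158 with the block). PGRP-SD, a recognition protein, had an adjusted p of 0.0955, and 0.0372 with the block. The summed markers of hemocytes were 1345, 2297 and 1678 CPM after post-NRC starvation, against 1066, 1050 and 2695 CPM after feeding. Those of fat body were 876.2, 796.9 and 2092 CPM after post-NRC starvation, against 899.2, 915.5 and 2332 CPM after feeding. The groups overlapped in both sums.

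Many digestive enzymes were higher after post-NRC starvation, few of them past the threshold. CG18179, with a predicted trypsin domain, had 106, 67.4 and 67.9 CPM after post-NRC starvation, against 0.656, 0.605 and 2.54 CPM after feeding (log2 change 5.98, SE 0.85, adjusted p = 0.02). Mal-A3, a maltase, had 2.76, 3.7 and 2.75 CPM after post-NRC starvation and was counted in 1 feeding library, at 0.0907 CPM, a ratio of 99.4 (95% counting interval 33.7 to 485, adjusted p = 0.02). Jon99Cii, a serine protease of the Jonah family of larval gut enzymes, had 10.9, 20.5 and 45.4 CPM after post-NRC starvation, against 1.31, 1.21 and 1.56 CPM after feeding (log2 change 4.23, SE 0.77, adjusted p = 0.0493). Jon25Biii, of the same family, had 9.43, 7.69 and 16.5 CPM after post-NRC starvation, against 1.03, 1.03 and 0.429 CPM after feeding (log2 change 3.75, SE 0.67, adjusted p = 0.0452, and 0.058 with the replicate block). The groups stayed apart in all 4 genes. Similar copies of the Jonah genes may share reads.

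The calls of CG18179 and Mal-A3 held in 5 of the 9 fits and were lost without feeding replicate 1 or 2 or post-NRC replicate 1 or 2 (highest adjusted p values 0.111 and 0.0963). Those of Jon99Cii and Jon25Biii held in 2, the fits without pre-NRC replicate 1 or 3 (highest adjusted p values 0.223 and 0.193). Of the 42 digestive enzymes listed and tested, Mal-A3, Jon99Cii and Jon25Biii rose and none fell, with a median change of 2.93. DESeq2 called 15 of them higher and limma-voom none. In all, 22 of the list were higher in every post-NRC library than in every feeding library (52.4%, against 13% of all genes tested), and 25 were higher at an unadjusted p under 0.05. Well-counted members varied widely between replicates. Jon65Aiii had 368, 1630 and 672 CPM after post-NRC starvation and 27.4, 34.2 and 293 CPM after feeding (adjusted p = 0.277). Jon65Aiv had 944, 3620 and 1590 CPM after post-NRC starvation and 54.1, 56.0 and 474 CPM after feeding (adjusted p = 0.209). Several listed enzymes, Jon65Aiii among them, are the gut markers whose sums are given above, and the part of gut tissue in the result was not tested.

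Of the 26 genes listed for the receptor of the brain hormone Ptth and for growth factor signalling, spi was the only rise, none fell and the median change was 0.04. spi encodes Spitz, the main ligand of the fly EGF receptor, and had 311, 400 and 351 CPM after post-NRC starvation, against 125, 121 and 150 CPM after feeding (log2 change 1.42, SE 0.22, adjusted p = 0.0307). A further 4 genes of signalling, outside any list, are described with it. edl, an inhibitor of ETS factors downstream of that receptor, had 15.2, 19.3 and 16.6 CPM after post-NRC starvation, against 5.56, 5.75 and 8.11 CPM after feeding (log2 change 1.39, SE 0.24, adjusted p = 0.0384). Ets21C, a stress-induced ETS transcription factor, had 24.9, 57.4 and 14.9 CPM after post-NRC starvation, against 2.91, 1.15 and 2.27 CPM after feeding (log2 change 3.94, SE 0.66, adjusted p = 0.0357). Its exons overlap those of nAChRbeta3. Each of these genes was higher in every starved library than in every fed one, as were the next pair. cv-2, a secreted BMP-binding protein, had 58.2, 68.2 and 77.2 CPM after post-NRC starvation, against 14.6, 15.7 and 16.2 CPM after feeding (log2 change 2.13, SE 0.34, adjusted p = 0.032). Swim, a secreted protein that binds Wingless, had 102, 117 and 154 CPM after post-NRC starvation, against 51.6, 56.5 and 55.5 CPM after feeding, the smallest of all rises (log2 change 1.19, SE 0.19, adjusted p = 0.032). These 5 calls each held in 2 of the 9 fits, with highest adjusted p values of 0.174 to 0.217, and none held without feeding replicate 1 or 2.

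Of 31 tested neuropeptide genes, Proc was the only rise, none fell and the median change was 0.76. Of 13 tested neuron markers, VGlut was the only rise, none fell and the median change was 0.51. Proc, the precursor of the neuropeptide proctolin, had 67.6, 49.9 and 57.6 CPM after post-NRC starvation, against 0.907, 0.302 and 4.81 CPM after feeding. The starved libraries were alike and the fed ones varied over a wide range below them (log2 change 4.86, SE 0.88, adjusted p = 0.0487, held in 2 of 9 fits). VGlut, the vesicular glutamate transporter, had 2.59, 1.71 and 1.13 CPM after post-NRC starvation, against 0.219, 0.212 and 0.0918 CPM after feeding (log2 change 3.35, SE 0.60, adjusted p = 0.0452), and its exons overlap those of CG18641. The call of VGlut held in 1 of the 9 fits, that without pre-NRC replicate 3, and both calls were lost without feeding replicate 1 or 2, with highest adjusted p values of 0.203 for Proc and 0.207 for VGlut. The sum of 13 neuron markers, all counted, was 142.1, 120.0 and 172.6 CPM after post-NRC starvation and 74.68, 83.76 and 145.3 CPM after feeding, with overlapping groups, and its part in these results was not tested. Ptth, the brain hormone that drives ecdysone synthesis, had 2.76, 5.41 and 1.71 CPM after post-NRC starvation and 0.907, 0.968 and 0.735 CPM after feeding (adjusted p = 0.124).

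Further rises fell outside these groups. qua, a villin-like actin-bundling protein, had 17.5, 19.6 and 9.68 CPM after post-NRC starvation, against 2.13, 2.36 and 1.38 CPM after feeding (log2 change 2.99, SE 0.34, adjusted p = 0.00663), and its call held in every fit. ImpL1, an ecdysone-inducible gene, had 1.99, 3.2 and 2.08 CPM after post-NRC starvation, against 0.219, 0.212 and 0.367 CPM after feeding (log2 change 3.17, SE 0.44, adjusted p = 0.0197). It was the only rise among 24 tested ecdysone response genes, of which none fell. Cyp28a5 was the only rise among 70 tested cytochrome P450 genes outside ecdysone synthesis (2 with the block), with 48.7, 86.1 and 18.1 CPM after post-NRC starvation, against 3.0, 2.66 and 4.13 CPM after feeding (log2 change 3.96, SE 0.63, adjusted p = 0.0313). Of the 70, 16 were higher and 2 lower at an unadjusted p under 0.05, and DESeq2 called 7 higher and 1 lower. In every post-NRC library against every feeding library, 19 were higher (27.1%, against 13% of all genes tested) and 2 lower (2.86%, against 10.3%). Sodh-1, a sorbitol dehydrogenase, had 6.08, 7.08 and 8.67 CPM after post-NRC starvation, against 0.469, 0.454 and 0.276 CPM after feeding (log2 change 4.18, SE 0.63, adjusted p = 0.0275). The groups were apart in each of the 4.

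CG1941, of the family of diacylglycerol acyltransferases that make triglyceride, had 19.0, 16.8 and 19.8 CPM after post-NRC starvation, against 3.88, 4.2 and 7.13 CPM after feeding (log2 change 1.87, SE 0.29, adjusted p = 0.0288). glob1, an intracellular globin, had 215, 214 and 79.8 CPM after post-NRC starvation, against 46.0, 43.0 and 35.8 CPM after feeding (log2 change 2.03, SE 0.36, adjusted p = 0.0452, and 0.0535 with the block). Post-NRC replicate 3 was the lowest starved library of glob1 and still stood above the fed ones. Sclp, CG4577 and CG3630 rose by log2 changes of 2.07, 1.77 and 1.52 (adjusted p values 0.00663, 0.0179 and 0.0185), and the odorant-binding protein genes Obp99a and Obp99c rose by 2.5 and 2.06 (adjusted p values 0.0245 and 0.0295). The calls of Sclp and CG4577 held in 7 of the 9 fits and that of CG3630 in 6. Those of ImpL1 and Obp99a held in 5, those of Cyp28a5, Sodh-1 and Obp99c in 3, and those of CG1941 and glob1 in 2. All of these genes apart from qua lost their calls without feeding replicate 1 or 2, with highest adjusted p values of 0.061 to 0.207.

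Most glycolytic genes were lower after post-NRC starvation, and 2 passed the test. Glycolysis splits glucose to pyruvate for energy and for building blocks. Gapdh2, glyceraldehyde-3-phosphate dehydrogenase, had 201, 201 and 168 CPM after post-NRC starvation, against 565, 576 and 521 CPM after feeding. Each starved library was well below each fed one (log2 change -1.54, SE 0.21, adjusted p = 0.0181). Ald, fructose-bisphosphate aldolase, had 217, 195 and 171 CPM after post-NRC starvation, against 468, 483 and 433 CPM after feeding (log2 change -1.25, SE 0.20, adjusted p = 0.0309). Their calls held in 5 and 2 of the 9 fits and were lost without feeding replicate 1 or 2 (highest adjusted p values 0.101 and 0.174). Of the 16 glycolytic genes tested, these 2 fell and none rose, the median change was -0.97, and 13 were lower in every post-NRC library than in every feeding library (81.2%, against 10.3% of all genes tested).

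Most other steps of the pathway lay on the same side without passing. PyK, pyruvate kinase, had 314, 340 and 282 CPM after post-NRC starvation and 657, 658 and 517 CPM after feeding (adjusted p = 0.0566, and 0.0341 with the block). Tpi, triose phosphate isomerase, had 128, 175 and 114 CPM after post-NRC starvation and 346, 363 and 247 CPM after feeding (adjusted p = 0.0647, and 0.0452 with the block). Pgk and Pglym78, the next enzymes of the lower pathway, had log2 differences of -0.93 and -1.01 (adjusted p values 0.114 and 0.157, and 0.0372 and 0.0363 with the block). Eno, enolase, and Pfk, phosphofructokinase, differed by -1.11 and -1.14 (adjusted p values 0.0778 and 0.0749). ImpL3, lactate dehydrogenase, had 9.57, 17.7 and 13.1 CPM after post-NRC starvation and 31.7, 34.1 and 49.5 CPM after feeding (adjusted p = 0.121). The block fit called 6 of the 16 lower, DESeq2 11 and limma-voom 2.

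A gene of each arm of glycogen metabolism fell. GlyP, glycogen phosphorylase, had 72.3, 84.6 and 68.3 CPM after post-NRC starvation, against 205, 188 and 177 CPM after feeding (log2 change -1.34, SE 0.18, adjusted p = 0.0181). GlyS, glycogen synthase, had 52.5, 49.6 and 50.3 CPM after post-NRC starvation, against 112, 106 and 98.7 CPM after feeding (log2 change -1.06, SE 0.16, adjusted p = 0.0269). In both genes the libraries of a group were close and the groups apart. GlyP lost its call without feeding replicate 1 or 2 or post-NRC replicate 1 (highest adjusted p 0.104), and GlyS kept it only without feeding replicate 3 or pre-NRC replicate 3 (highest adjusted p 0.159). AGBE, the glycogen branching enzyme, had 36.7, 41.5 and 28.8 CPM after post-NRC starvation and 82.4, 84.7 and 65.4 CPM after feeding (adjusted p = 0.0808, and 0.0277 with the block). Of 13 tested glycogen and trehalose genes 2 fell and none rose, and the median change was -0.41.

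The summed level of muscle markers was lower in the post-NRC libraries, while single markers varied. The sum of the 18 muscle and aorta markers was 3790, 6775 and 5029 CPM after post-NRC starvation, against 7473, 7674 and 7902 CPM after feeding. After pre-NRC starvation it was 15770, 12180 and 10220 CPM, above feeding. None of the 18 was called and their median change was -0.08, with 3 lower and 1 higher at an unadjusted p under 0.05, 3 lower by DESeq2 and none by limma-voom. The groups did not overlap for 4 that were lower (22.2%, against 10.3% of all genes tested) and 2 that were higher (11.1%, against 13%). The part of the summed muscle markers in the lower level of glycolytic and glycogen genes was not tested. Mlp84B, a muscle LIM protein outside the marker list, fell, with 73.1, 112 and 75.6 CPM after post-NRC starvation, against 262, 263 and 205 CPM after feeding (log2 change -1.49, SE 0.26, adjusted p = 0.043). Its call held only without feeding replicate 3 or pre-NRC replicate 3 (highest adjusted p 0.195).

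**Figure D4:**
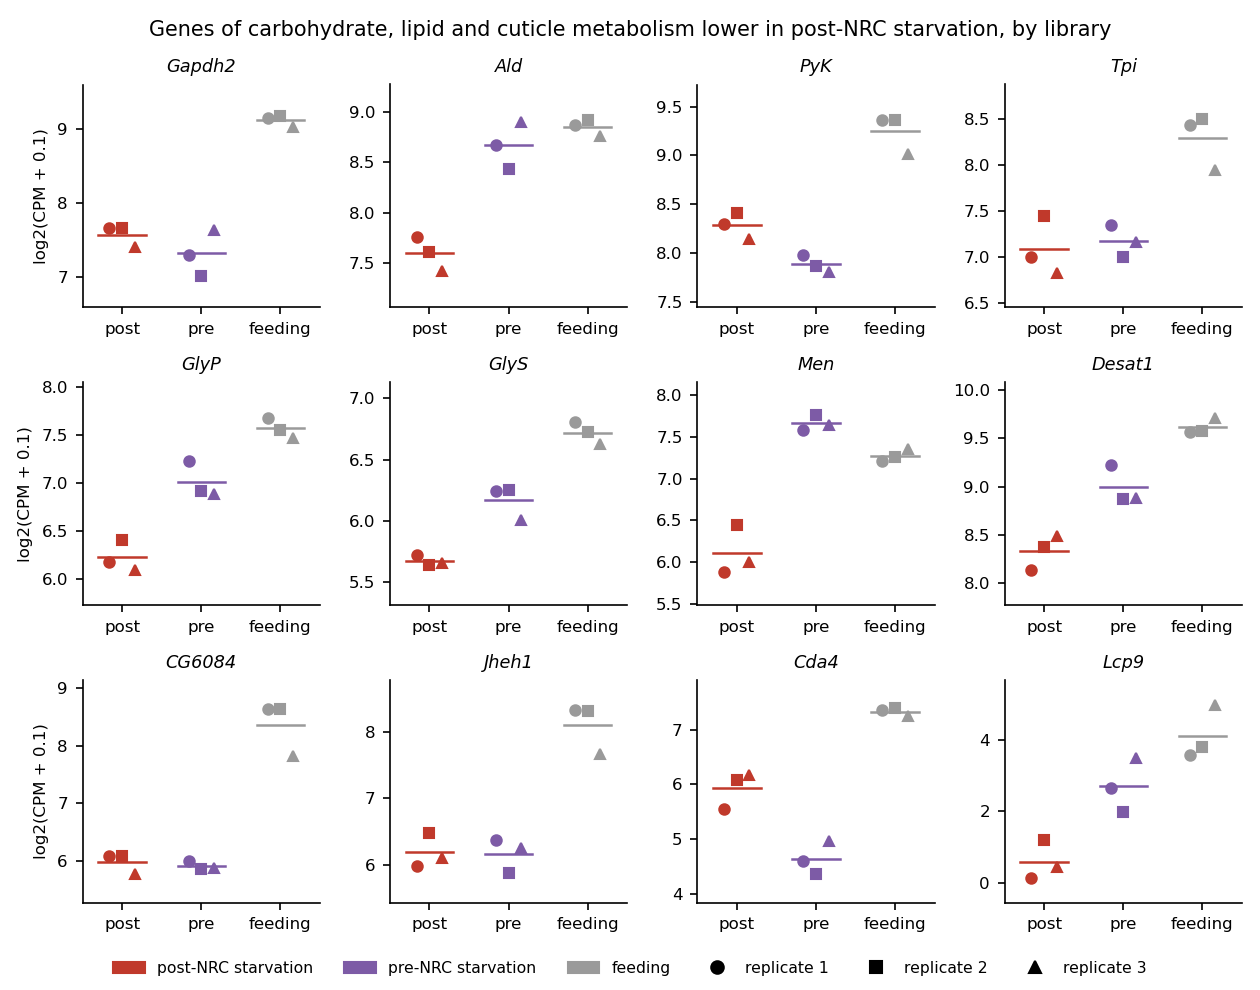
Level of 12 genes that were lower after post-NRC starvation, in each library, as log2(CPM + 0.1), with post-NRC starvation on the left, then pre-NRC starvation, then feeding. Points are libraries, their shape is the replicate number and bars are the mean of the log values. PyK and Tpi did not pass the test. For Men, Ald, GlyP, GlyS, Desat1 and Lcp9 the post-NRC libraries lie below both other groups, and for Cda4 and PyK between them.

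Genes of lipid synthesis, redox and amino acid metabolism fell singly. CG6084, an aldo-keto reductase (Akr1B), had 67.5, 67.6 and 54.7 CPM after post-NRC starvation, against 396, 398 and 226 CPM after feeding (log2 change -2.43, SE 0.25, adjusted p = 0.00622). It was the only fall whose call held in every fit. Desat1, the acyl-CoA desaturase that makes monounsaturated fatty acids, had 282, 332 and 360 CPM after post-NRC starvation, against 758, 762 and 839 CPM after feeding (log2 change -1.28, SE 0.20, adjusted p = 0.0291). CG1444 (spidey), a ketoacyl-CoA and steroid dehydrogenase, had 124, 120 and 124 CPM after post-NRC starvation, against 285, 285 and 237 CPM after feeding (log2 change -1.13, SE 0.19, adjusted p = 0.0335). Men, malic enzyme, which yields NADPH, had 58.9, 87.3 and 63.7 CPM after post-NRC starvation, against 148, 153 and 163 CPM after feeding (log2 change -1.14, SE 0.19, adjusted p = 0.0366). P5CDh1, an enzyme of proline breakdown, had 98.6, 117 and 119 CPM after post-NRC starvation, against 221, 219 and 219 CPM after feeding (log2 change -0.98, SE 0.16, adjusted p = 0.032), and its exons overlap those of Nopp140. Each of these genes was lower in every post-NRC library than in every feeding library, while the pre-NRC libraries of Men lay above feeding. Desat1 held in 4 of the 9 fits, and CG1444, Men and P5CDh1 in 2. These 4 calls were lost without feeding replicate 1 or 2, with highest adjusted p values of 0.143 to 0.192.

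Of 19 genes of fatty acid synthesis and lipid droplets, 1 fell, none rose and the median change was -0.36. Of 24 genes of the TCA cycle and its entry, Men was the only fall and none rose. In every post-NRC library against every feeding library, 12 of the 24 were lower, against 10.3% of all genes tested. Another 2 were higher (8.33%, against 13%). The block fit called 2 lower and 1 higher. kdn, citrate synthase, had 72.9, 66.5 and 61.2 CPM after post-NRC starvation and 115, 116 and 104 CPM after feeding (adjusted p = 0.112, and 0.0498 with the block). None of the 20 genes of fatty acid oxidation passed, although 7 were lower at an unadjusted p under 0.05, DESeq2 called 3 and the block fit 1. Mtpalpha, of the mitochondrial trifunctional enzyme, had 275, 305 and 196 CPM after post-NRC starvation and 507, 508 and 455 CPM after feeding (adjusted p = 0.0834, and 0.0468 with the block).

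Jheh1, an epoxide hydrolase that inactivates juvenile hormone, had 63.0, 89.1 and 68.8 CPM after post-NRC starvation, against 321, 318 and 203 CPM after feeding (log2 change -1.93, SE 0.26, adjusted p = 0.0179). The starved libraries lay well below the fed ones, and the call was lost without feeding replicate 1 or 2 or post-NRC replicate 1 (highest adjusted p 0.0918). Jheh2, its neighbour in the family, had 313, 405 and 319 CPM after post-NRC starvation and 890, 917 and 594 CPM after feeding (adjusted p = 0.0668, and 0.0496 with the block). Jheh1 was the only one of 17 tested juvenile hormone genes to pass. jhamt, the methyltransferase of the last steps of juvenile hormone synthesis, had 471, 555 and 434 CPM after post-NRC starvation and 713, 690 and 654 CPM after feeding (adjusted p = 0.364).

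Larval cuticle genes fell in a few members. Lcp9 had 1.01, 2.21 and 1.25 CPM after post-NRC starvation, against 11.8, 13.7 and 30.9 CPM after feeding (log2 change -3.65, SE 0.59, adjusted p = 0.032), the furthest of all falls. Lcp65Ab1 had 2.69, 6.05 and 4.58 CPM after post-NRC starvation, against 22.0, 22.9 and 52.9 CPM after feeding (log2 change -2.87, SE 0.49, adjusted p = 0.0366). Lcp65Ab2 had 2.31, 5.66 and 4.03 CPM after post-NRC starvation, against 21.6, 23.4 and 43.5 CPM after feeding (log2 change -2.88, SE 0.46, adjusted p = 0.0317). Lcp65Ab1 and Lcp65Ab2 are near-identical neighbours on chromosome 3L, bases 6146674 to 6149960, so reads may have been divided between them and they are not independent. In all 3 genes feeding replicate 3 was the highest library. Of 73 tested cuticle protein genes these 3 fell and none rose, yet the median change was 0.99. In every post-NRC library against every feeding library, 11 were higher (15.1%, against 13% of all genes tested) and 12 lower (16.4%, against 10.3%). The block fit called 2 higher and 4 lower. Cda4, a chitin deacetylase, had 47.0, 67.9 and 72.2 CPM after post-NRC starvation, against 164, 168 and 153 CPM after feeding (log2 change -1.37, SE 0.23, adjusted p = 0.0357), the only fall among 36 chitin genes, of which none rose and whose median change was 0.58. With the block, 1 rose and 1 fell, and DESeq2 called 7 higher and 1 lower. Of these 36, 13 were higher in every post-NRC library than in every feeding library (36.1%, against 13%). Another 3 were lower (8.33%, against 10.3%). The calls of Lcp9 and Lcp65Ab2 held in 3 of the 9 fits and those of Lcp65Ab1 and Cda4 in 2. All 4 were lost without feeding replicate 1 or 2, with highest adjusted p values of 0.11 to 0.174.

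The remaining falls were of 4 genes. Hsp67Bb, of the heat shock gene cluster at 67B, had 41.0, 26.3 and 18.0 CPM after post-NRC starvation, against 170, 159 and 70.5 CPM after feeding (log2 change -2.23, SE 0.40, adjusted p = 0.0452), and its exons overlap those of Hsp22. CG9297 had 7.55, 15.1 and 10.4 CPM after post-NRC starvation, against 50.2, 53.0 and 49.0 CPM after feeding (log2 change -2.20, SE 0.30, adjusted p = 0.0197). ltl, which encodes a leucine-rich repeat protein, had 31.4, 24.4 and 43.2 CPM after post-NRC starvation, against 143, 141 and 110 CPM after feeding (log2 change -1.99, SE 0.27, adjusted p = 0.0181). CG1636 had 29.4, 25.8 and 31.2 CPM after post-NRC starvation, against 55.4, 57.7 and 59.4 CPM after feeding (log2 change -1.0, SE 0.18, adjusted p = 0.0493). The groups were apart in all of them. The calls of ltl and CG9297 held in 5 of the 9 fits, that of Hsp67Bb in 2 and that of CG1636 in 1, and each was lost without feeding replicate 1 or 2, with highest adjusted p values of 0.0918 to 0.217.

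**Figure D5:**
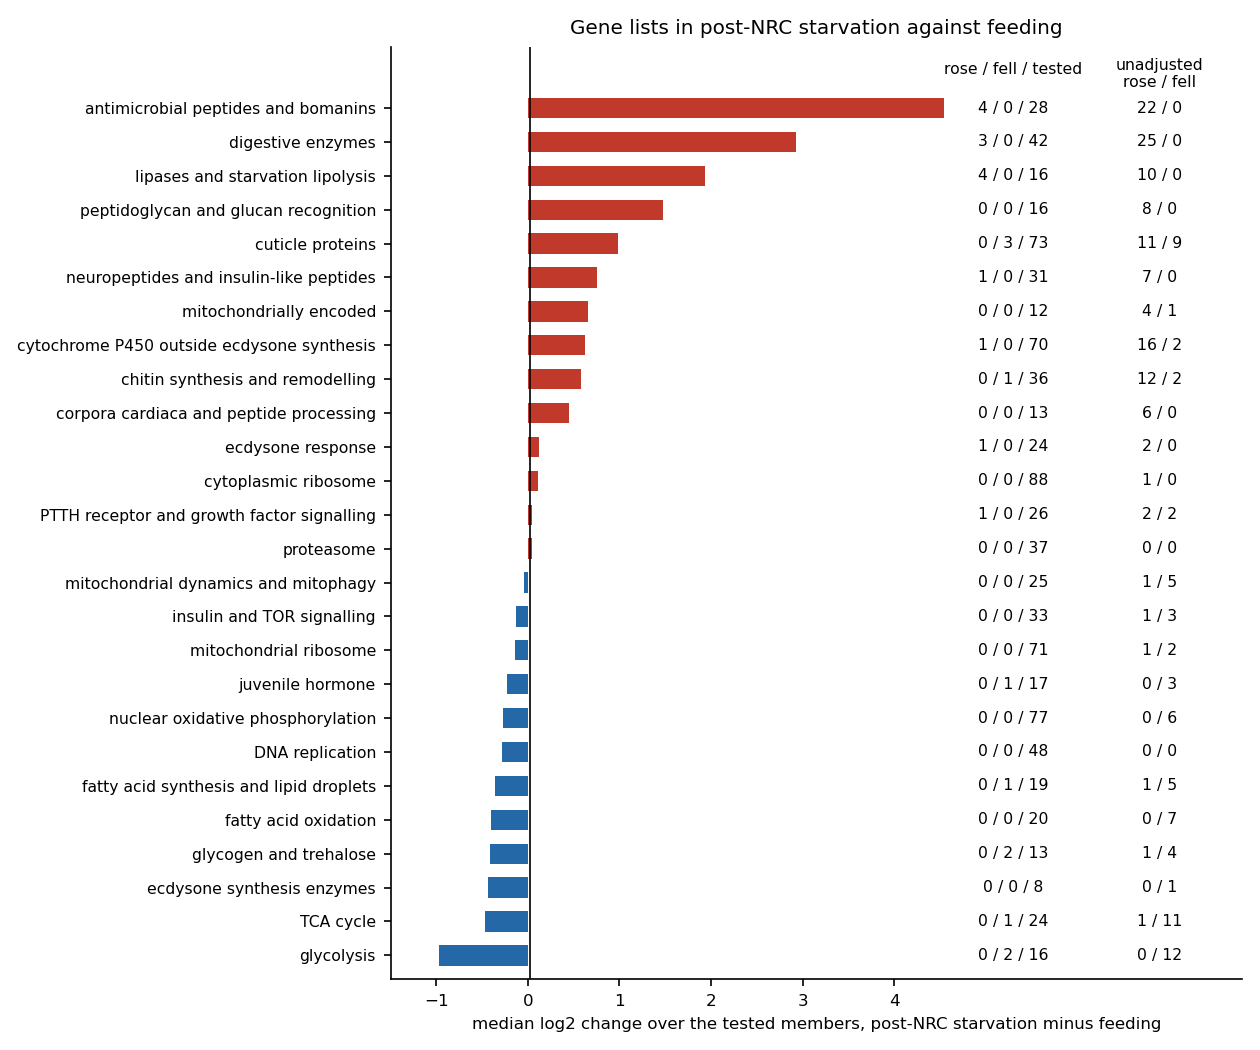
Median log2 change of post-NRC starvation minus feeding over the tested members of each gene list (bars), with the numbers that rose, fell and were tested written beside it, and the vertical line at the median of all genes tested, 0.02. Antimicrobial peptides and digestive enzymes have the highest medians, 4.54 and 2.93, and glycolysis the lowest, -0.97.

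Hormone-producing genes of the gland itself did not pass the test. None of the 8 enzymes of ecdysone synthesis was called, 1 was lower at an unadjusted p under 0.05 and by DESeq2, and none by limma-voom. Their median difference was -0.43, and 3 of the 8, nvd, spok and sad, were lower in every post-NRC library than in every feeding library (37.5%, against 10.3% of all genes tested). sro, a short-chain dehydrogenase of the early pathway, had 857, 559 and 382 CPM after post-NRC starvation and 1560, 1540 and 790 CPM after feeding. Post-NRC replicate 1 lay above feeding replicate 3, so the groups overlapped (log2 difference -1.11, SE 0.35, adjusted p = 0.191). phm and sad, hydroxylases of the later steps, differed by -0.42 and -0.45 (adjusted p values 0.603 and 0.834). phm had 7420, 8470 and 10700 CPM after post-NRC starvation and 10100, 10100 and 15400 CPM after feeding, with overlapping groups. nvd and spok, which act at the start of the pathway, differed by -1.10 and -0.89 (adjusted p values 0.487 and 0.568), and dib, a further hydroxylase, by -0.35 (adjusted p = 0.804). Akh, adipokinetic hormone, had 8970, 4520 and 8840 CPM after post-NRC starvation and 1370, 4680 and 2000 CPM after feeding (adjusted p = 0.223). Feeding replicate 2 lay within the starved range. Ras64B, which ends 68 bases before Akh on the same strand, had 2665, 11890 and 77.5 CPM after post-NRC starvation and 3181, 107 and 1013 CPM after feeding, so reads of the pair may have been divided differently between libraries. The pair summed to 11640, 16410 and 8921 CPM after post-NRC starvation, against 4554, 4787 and 3013 CPM after feeding, with no overlap. The sum was taken after the values were seen and was not tested. Thor, the translation repressor 4E-BP that is a target of foxo, had 2850, 1960 and 2300 CPM after post-NRC starvation and 1000, 1010 and 2230 CPM after feeding (adjusted p = 0.352). Feeding replicate 3 lay above the lowest starved library.

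Mitochondria are named in the study's title, and no gene of the nuclear-encoded mitochondrial lists below passed. None of 71 mitochondrial ribosome genes passed (median difference -0.14), with 1 higher and 2 lower at an unadjusted p under 0.05 and 1 in each direction by DESeq2. None of 77 nuclear oxidative phosphorylation genes passed (median -0.27), with 6 lower at an unadjusted p under 0.05 and 2 by DESeq2. Among 25 genes of mitochondrial dynamics and mitophagy none passed (median -0.04), with 1 higher and 5 lower at an unadjusted p under 0.05, 2 lower by DESeq2 and 1 lower with the block. None of 18 genes of mitochondrial import, chaperones and proteases passed (median -0.43), with 4 lower at an unadjusted p under 0.05 and 3 lower by DESeq2. Of the 18, 7 were lower in every post-NRC library than in every feeding library (38.9%, against 10.3% of all genes tested). limma-voom called none in these 4 lists. Marf, the fly mitofusin, had 127, 138 and 126 CPM after post-NRC starvation and 139, 136 and 133 CPM after feeding, with overlapping groups (log2 difference -0.06, adjusted p = 0.914, turning to 0.02 with upper-quartile scaling). Drp1, the fission GTPase, had 103, 72.1 and 92.6 CPM after post-NRC starvation and 116, 107 and 109 CPM after feeding, with the starved libraries all lower (log2 difference -0.31, adjusted p = 0.49). Pink1, the kinase that starts mitophagy, had 166, 243 and 144 CPM after post-NRC starvation and 159, 165 and 116 CPM after feeding, with overlapping groups (adjusted p = 0.69).

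Transcripts of the mitochondrial genome lay on the other side. Of 12 tested, none passed, 4 were higher and 1 lower at an unadjusted p under 0.05, DESeq2 called 2 higher and limma-voom none. Their median difference was 0.66, and 10 were higher in every post-NRC library than in every feeding library (83.3%, against 13% of all genes tested). mt:Cyt-b, cytochrome b of complex III, had 10700, 11100 and 11000 CPM after post-NRC starvation and 6980, 6680 and 6490 CPM after feeding (log2 difference 0.70, SE 0.19, adjusted p = 0.135). These genes share 1 genome and are transcribed together, so they are not independent. Of all 25 genes named for the study's subject, none was called, 3 had an unadjusted p under 0.05, DESeq2 called 2 and limma-voom none.

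Lists of growth and housekeeping genes had no called member. None of 33 insulin and TOR signalling genes passed (median -0.13), with 1 higher and 3 lower at an unadjusted p under 0.05 and 1 in each direction by DESeq2. Of the 33, 7 were lower in every post-NRC library than in every feeding library (21.2%, against 10.3% of all genes tested). None of 88 cytoplasmic ribosome genes passed (median 0.11), with 1 higher at an unadjusted p under 0.05 and by DESeq2. None of 37 proteasome genes passed (median 0.04), and none at an unadjusted p under 0.05 or by DESeq2. None of 48 DNA replication genes passed (median -0.28), and none at an unadjusted p under 0.05 or by DESeq2. Even so, 15 were lower in every post-NRC library than in every feeding library (31.2%, against 10.3% of all genes tested). None of 32 genes of aminoacyl-tRNA synthesis passed (median -0.34), with 8 lower at an unadjusted p under 0.05, 1 lower by DESeq2 and 15 apart and lower (46.9%). None of 24 genes of the lysosomal proton pump passed (median -0.41), with 6 lower at an unadjusted p under 0.05, 3 lower by DESeq2 and 10 apart and lower (41.7%). None of 28 genes of ribosome biogenesis passed (median -0.37), with 7 lower at an unadjusted p under 0.05, 4 lower by DESeq2 and 9 apart and lower (32.1%). limma-voom called no member of these 7 lists.

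The comparisons of the starved groups with feeding share the feeding libraries, so the direct contrast of post-NRC with pre-NRC starvation was used to ask whether they differed. It called 565 of 10883 genes (5.19%), 207 higher (1.9%) and 358 lower (3.29%) after post-NRC starvation. Of the 69 rises, 30 were lower after post-NRC than after pre-NRC starvation and 39 were not called. In 49 of the 69 all post-NRC libraries lay between the feeding and the pre-NRC libraries. The 69 were selected as higher than feeding, and the same share over all genes tested was not counted. The 49 therefore have no background to be read against. CG14852, for example, had 327, 434 and 290 CPM after post-NRC starvation, 4030, 4330 and 2940 CPM after pre-NRC starvation and 1.53, 2.42 and 1.04 CPM after feeding. The post-NRC minus pre-NRC difference was -3.43 (log2, adjusted p = 0.008). CG4593 was not told apart between the starved groups (log2 difference 0.49, adjusted p = 0.331). Of the 19 falls, Men, Ald, GlyP and Mlp84B were lower after post-NRC than after pre-NRC starvation, Cda4 was higher, and 14 were not called.

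Groups with no call against feeding had members called between the starved groups. Of the 37 proteasome genes, 21 were higher after post-NRC than after pre-NRC starvation (median 1.24). Of the 71 mitochondrial ribosome genes, 5 were higher (median 0.77). Over all genes tested, 1.9% were called higher. sro had 857, 559 and 382 CPM after post-NRC starvation and 167, 141 and 158 CPM after pre-NRC starvation, and was the only called ecdysone enzyme (log2 difference 1.95, adjusted p = 0.0347). Marf had 127, 138 and 126 CPM after post-NRC starvation and 259, 304 and 242 CPM after pre-NRC starvation (log2 difference -1.04, adjusted p = 0.0291). This contrast also rested on single libraries. It called 6 genes without post-NRC replicate 1, 7 without pre-NRC replicate 2 and 21 without pre-NRC replicate 1. All of these were lower after post-NRC starvation. The higher calls above, sro among them, were therefore lost in each of these fits.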

How the data were processed

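Per the labels, RNA was extracted from pooled w1118 ring glands with a miRNeasy Micro Kit and sequenced as paired ends after a directional library preparation. The submitters' processing notes name HISAT2, StringTie, Bowtie, Cufflinks and the BDGP6 build. The versions and roles of these tools, the counting tool and its strand setting were not given in the sources used here. Named genes whose exons overlap another gene are listed in the results. The authors deposited 1 table of 14409 genes with whole-number counts and FPKM per library. The feeding columns carry the time of 108 h instead of the group name. FPKM values deposited by the authors served only as an alternative.

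Counts were fitted with edgeR 4.0.16 (R 4.3.3, quasi-likelihood test, TMM factors, filterByExpr with a minimum count of 10 and a minimum total of 15), with 1 coefficient for each of 3 groups over all 9 libraries. This kept 10883 genes. Calls used a Benjamini-Hochberg adjusted p under 0.05 over all of them, and the common biological coefficient of variation was 50.6%. CPM were taken on TMM-scaled totals. The floor for genes with no count was 3 counts over the group, and intervals (95%, exact) cover counting error only. p-values measure the spread between pools.

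Same-numbered post-NRC and feeding libraries deviated together (r = 0.1726, 0.1214 and 0.3472 over 9173 genes). Different numbers among replicates 1 and 2 gave 0.112 and 0.1588. The values set replicate 3 apart and do not tell replicates 1 and 2 from each other. A pairing by number was therefore not settled. The main fit held no term for the replicate number, and the block was an alternative fit. Alternatives were DESeq2 1.42.0, limma 3.58.1, other scalings and filters, the block, a term for replicate 3, fewer libraries and summed feeding replicates 1 and 2. The fit was tested on simulated counts.

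The members and the 43 pathway and 13 marker lists were chosen with earlier results of these data known. Named genes were drawn from the 15 largest rises and 15 largest falls past the threshold with at least 50 mean counts in the higher group, calls that held without each library, up to 4 genes of each list and 25 genes of the study's subject. Several list and subject genes, such as EcR, foxo and porin, are given only within the counts. Others, among them further called genes and list members near the threshold, were named after their values were seen. Lists are given by counts and medians, without a test.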

Additional observations from a re-analysis of the deposited data

Results flagged for a closer look

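For 32 of the 104 named genes, the change from feeding differed between post-NRC and pre-NRC starvation. The direct contrast of the starved groups was used (edgeR, adjusted p under 0.05). Of the 32, 30 were lower after post-NRC starvation. Over all genes tested, 5.19% were called and 3.29% were lower. Many genes were named for their change from feeding, so these shares differ in selection. Without post-NRC replicate 1 the contrast called 6 genes in all, and without pre-NRC replicate 2 it called 7. Most of these calls were therefore lost in those fits, those of Cda4 and sro among them. The values below are log2 differences, post-NRC minus pre-NRC starvation.

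Men stood out because its differences from feeding had opposite signs in the starved groups, although only that of post-NRC starvation passed (log2 change -1.14, adjusted p = 0.0366). That of pre-NRC starvation was 0.39 (adjusted p = 0.158). It had 58.9, 87.3 and 63.7 CPM after post-NRC starvation, 191, 216 and 200 CPM after pre-NRC starvation and 148, 153 and 163 CPM after feeding, so the post-NRC libraries were below feeding and the pre-NRC libraries above it. The difference between the starved groups was -1.53 (adjusted p = 0.0162). Among the named genes called both against feeding and between the starved groups, it was the only one with such opposite signs.

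Among the lipases the difference was -2.99 for CG6283, -3.33 for Lip3, -2.43 for Lip4 and -1.83 for bmm. Of the genes known by number, CG43316 differed by -4.67, CG14850 by -4.49, CG13460 by -3.87, CG13135 by -3.50, CG14265 by -3.48, CG14852 and CG13461 by -3.43 and CG8087 by -3.40. CG18649 differed by -3.27, CG34290 by -3.18, CG17362 by -3.09, CG31313 by -2.95, CG32198 by -2.33 and CG42822 by -2.05. Among immune and digestive genes the difference was -1.31 for Drs, -4.81 for Jon25Biii, -3.70 for Mal-A3 and -3.22 for Jon99Cii. Cyp28a5 differed by -2.43 and Obp99c by -2.23.

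Of the metabolic and muscle genes that fell, Ald differed by -1.08, GlyP by -0.79 and Mlp84B by -1.19, and kdn, which was not called against feeding, by -1.42. Marf differed by -1.04. Cda4 and sro were the exceptions in direction, at 1.31 and 1.95, and after post-NRC starvation their means lay between those of pre-NRC starvation and feeding.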

How the results depend on the processing

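The count of 88 genes against feeding became 42 with the 6 libraries alone, 193 with the replicate block, 408 with a term for replicate 3, 741 with replicates 1 and 2 alone, 18 with feeding replicates 1 and 2 summed, 733 with DESeq2, 41 with limma-voom and 262 at an adjusted p of 0.1. It ranged from 14 (without feeding replicate 2) to 171 (without pre-NRC replicate 3) when 1 library was left out. The count of 565 between the starved groups became 1512 with the block, 2182 with the replicate 3 term, 3041 with replicates 1 and 2, 51 with the summed libraries, 1888 with DESeq2, 1121 and 979 with log2(FPKM + 1) and log2(FPKM + 0.1), and 1587 at an adjusted p of 0.1, and ranged from 6 (without post-NRC replicate 1) to 1551 (without pre-NRC replicate 3). The cause of these shifts was not tested. Other scalings and no low-count filter left both counts within 1.5 times. Of 2184 values for the 104 named genes, 1608 kept their direction and side of the threshold, 475 lost the call, 99 gained one and 2 reversed, dib (-0.56 to 0.04 with 1 library left out, the highest without feeding replicate 3) and Marf to 0.02 with upper-quartile factors. The block changed no call of a named gene against feeding other than those given with its value.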
